A study of Homo sapiens with 4 samples.

Results

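The 42 genes described here encode the cyclins, kinases, ubiquitin enzymes and spindle proteins that carry a cell through mitosis. They were chosen by name, as a list of mitotic regulators, with earlier results of these data known. Each name matched 1 Ensembl gene by its current symbol, so that 42 of the 62893 genes in the table were followed. All 42 passed the filter on low counts, among 16889 genes tested. The samples were T24 cells, an established line from a human bladder carcinoma, labelled siControl (2 libraries) or siNSUN2 (2 libraries), the latter an NSUN2 knockdown. NSUN2 is an RNA cytosine methyltransferase. The labels give no other treatment, no time point, no siRNA sequence and no statement that the replicates were separate cultures. Each p-value therefore sets the difference between groups against a spread within groups that could be purely technical. The comparison asks which mRNAs differ in abundance between knockdown and control cells.

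Entry into mitosis is driven by the kinase CDK1 bound to a B-type cyclin. WEE1 and PKMYT1 hold CDK1 inactive by phosphorylating it, and the CDC25 phosphatases release it. Exit follows when the anaphase-promoting complex (APC/C), a ubiquitin ligase directed first by CDC20 and then by FZR1 (CDH1), sends cyclin B and securin to the proteasome. Most mRNAs of this group peak in G2 and mitosis, under a transcription programme of the MuvB complex, B-MYB and FOXM1. In bulk RNA, fewer cells in G2 and mitosis and less mRNA in each of these cells cannot be told apart.

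Library totals ran from 33633249 to 215936965 counts, a 6.42-fold range, and every level below is in CPM (counts scaled to library size, with TMM factors), where 1 CPM stands for 34.2 to 213 counts. NSUN2 itself stood at 281 and 284 CPM in siControl and at 29.6 and 30.1 CPM in siNSUN2. Of 16 urothelial or epithelial markers, KRT7, KRT8, KRT18, PPARG and UPK1B were above 1 CPM in every library. The other 11, among them UPK2, UPK3A, GATA3, TP63, EPCAM and CDH1 (here the E-cadherin gene, not FZR1), were below 1 CPM in all. VIM, a mesenchymal marker, stood at 1020 and 1051 CPM in siControl and at 1768 and 1755 CPM in siNSUN2, and the sum over 5 mesenchymal markers was 1537 and 1565 against 2534 and 2522 CPM. siNSUN2 replicate 2 carried 8.73 CPM of the endothelial gene VWF and 2.66 CPM of HBB, against at most 1.80 and 0.188 CPM in the other libraries. Summed over the 3 endothelial markers the siControl libraries held 0.636 and 0.395 CPM and the siNSUN2 libraries 2.38 and 10.6 CPM, with PECAM1 at 0 in all. The 4 blood markers summed to 0 and 0.211 against 0.0436 and 3.24 CPM. The part of these transcripts in the results was not tested, and without that library 26 of the mitotic genes were lower and 6 higher, against 27 and 6 with it.

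Most of the mitotic genes fell in the knockdown. Of the 42, 27 were lower, 6 were higher and 9 did not pass (edgeR quasi-likelihood test, adjusted p under 0.05). Lower calls made up 64.3% of the group and 25.5% of all genes tested, and higher calls 14.3% of the group and 27.1% of all genes. Because the genes were chosen with earlier results of these data known, these shares are descriptions. The median log2 fold change of the group was −0.28, against 0.026 over all genes tested. In 28 of the 42, both siNSUN2 libraries lay below both siControl libraries, which held for 36.0% of all genes. A fitted fall of 1.5-fold was reached by 8 of the 42 (GTSE1, AURKA, DLGAP5, ASPM, CCNB1, HMMR, CDC25C and RACGAP1), and by 13.8% of all genes tested. GTSE1 alone reached 2-fold, as did 5.38% of all genes. The genes that rose were CDC25B, WEE1, PKMYT1, FZR1, ESPL1 and AURKB.

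**Figure D1:**
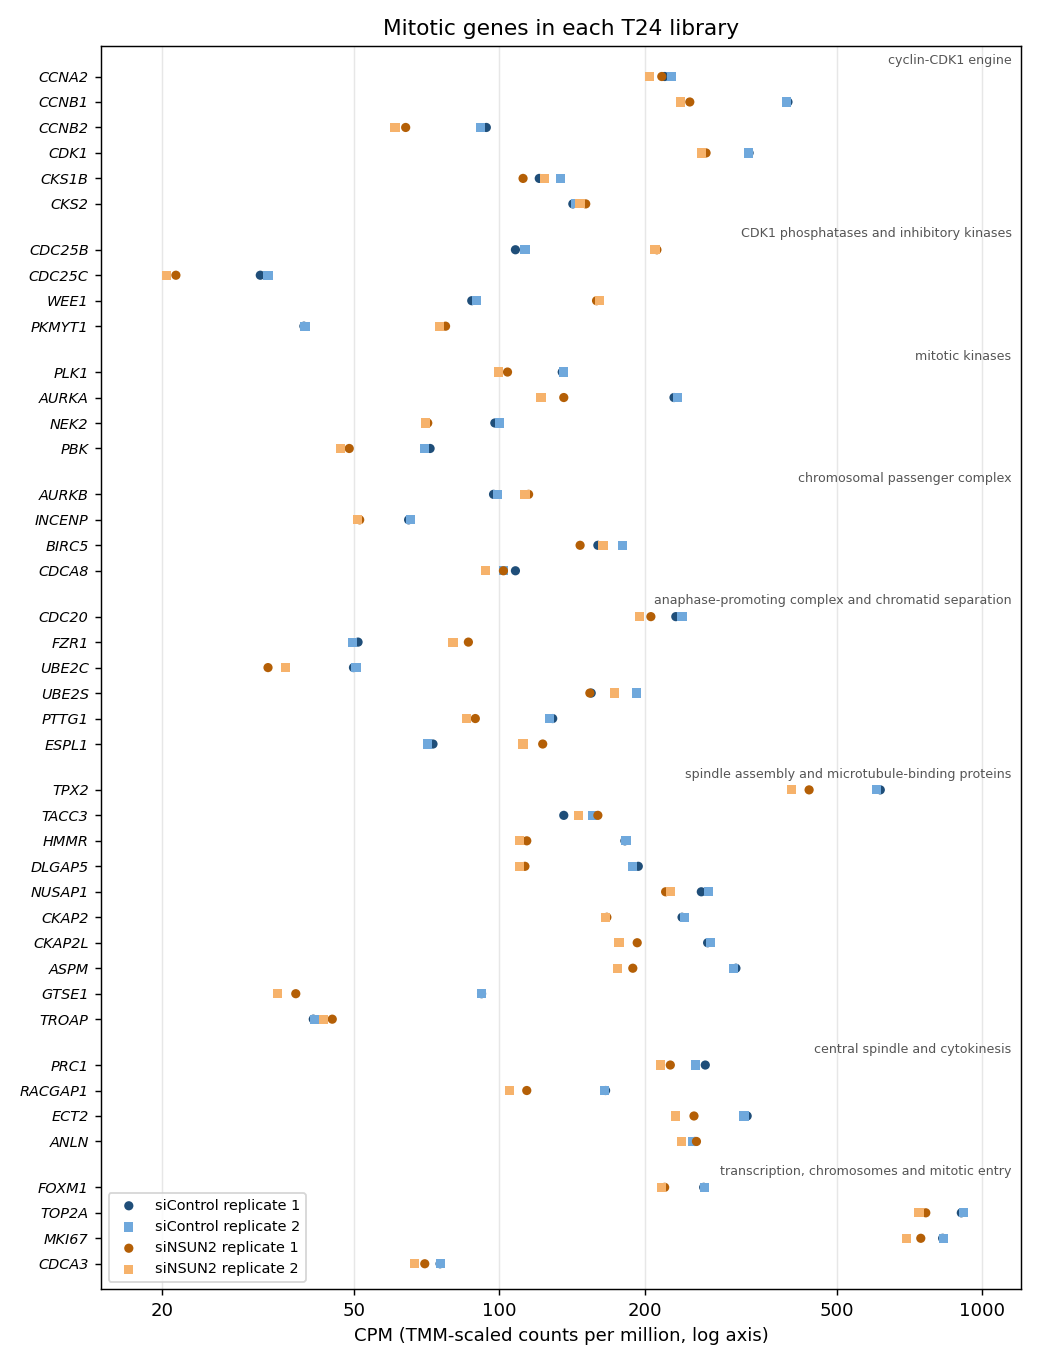
CPM of each of the 42 genes (log axis) in the 4 libraries, grouped by role, with siControl in blue and siNSUN2 in orange. For GTSE1, AURKA or TPX2 both orange points lie left of both blue points, for WEE1, PKMYT1, CDC25B, FZR1 and ESPL1 they lie right of them, and for UBE2S, BIRC5, TACC3 and ANLN the groups overlap.

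GC content moved with the changes and is given here because it bears on single genes. Among the 4568 genes tested whose longest coding transcript (or longest transcript where none is coding) has over 55% GC, 52.8% were higher and 8.10% were lower, with a median log2 fold change of 0.42. Among the 6101 genes under 45% GC, 13.5% were higher and 41.5% lower, with a median of −0.19. Between these limits 22.6% of 5617 genes were higher and 23.3% lower. Of the 12 mitotic genes over 55% GC, 5 were higher and 4 lower, of the 12 between the limits 9 were lower, and of the 18 under 45% GC 14 were lower and 1, WEE1, was higher. Taking trends on GC content and length off each library left 29 of the mitotic genes lower and 6 higher, with a median of −0.34, while lower calls became 27.3% and higher calls 19.0% of all genes tested. The calls of CDK1, NUSAP1, AURKB and FZR1 were lost with it, and TROAP, TACC3, BIRC5 and CDCA8 became lower and CKS2 and ANLN higher. The value with this correction is given below wherever it ends a call or moves a called fold change by over 1.5 times.

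**Figure D2:**
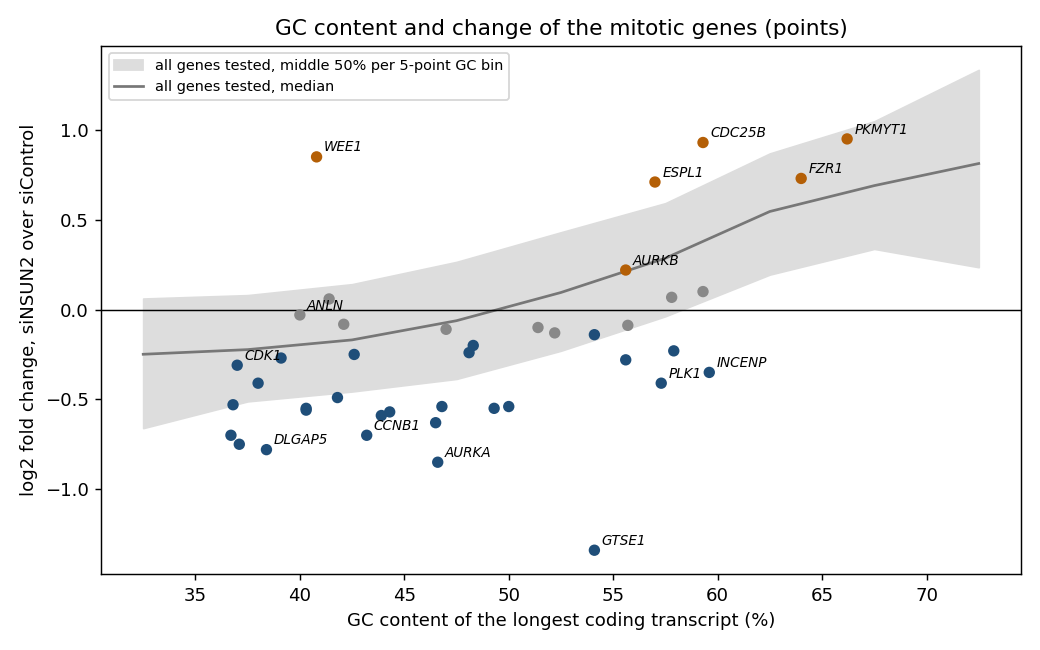
Log2 fold change (siNSUN2 over siControl) against GC content of the longest coding transcript in percent. Points are the 42 mitotic genes (blue lower, orange higher, grey not called), the line is the median of all genes tested in bins of 5 percentage points and the band their middle 50%. GTSE1, AURKA, PLK1 and INCENP lie below the band, WEE1, CDC25B and ESPL1 above it, and AURKB and FZR1 inside it.

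Promoter sequence was searched for words already known from mitotic promoters, so the shares below are descriptions. Mitotic promoters are known for the cell cycle genes homology region (CHR), bound by the MuvB subunit LIN54, and for CCAAT boxes, bound by NF-Y. The words TTTGAA (CHR) and CCAAT were searched on both strands in RefSeq windows of 300 bases (250 before and 50 from the annotated start, GRCh38.p14). Windows were found for 32 of the 42 genes, and PBK, TROAP, FOXM1, TPX2, RACGAP1, BIRC5, AURKA, PKMYT1, UBE2C and WEE1 had none in the table. TTTGAA occurred in a window of 23 of the 32 (71.9%), against 13.8% of the 11049 genes tested that have a window. CCAAT occurred in 28 (87.5%), against 43.0%, and both words in 21 (65.6%), against 5.74%. In 16 of the 32 a TTTGAA match began 1 to 40 bases before a start, against 1.92% of genes tested.

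Genes with both words were found among all 3 kinds of call. Of the 21 lower genes with a window, 17 held both words, as did 1 of the 4 higher genes (ESPL1) and 3 of the 7 that were not called. The difference between these shares was not tested, and a word match is a description of the sequence, not a bound site. The words overlapped each other at 2 places in the windows of these genes.

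**Figure D3:**
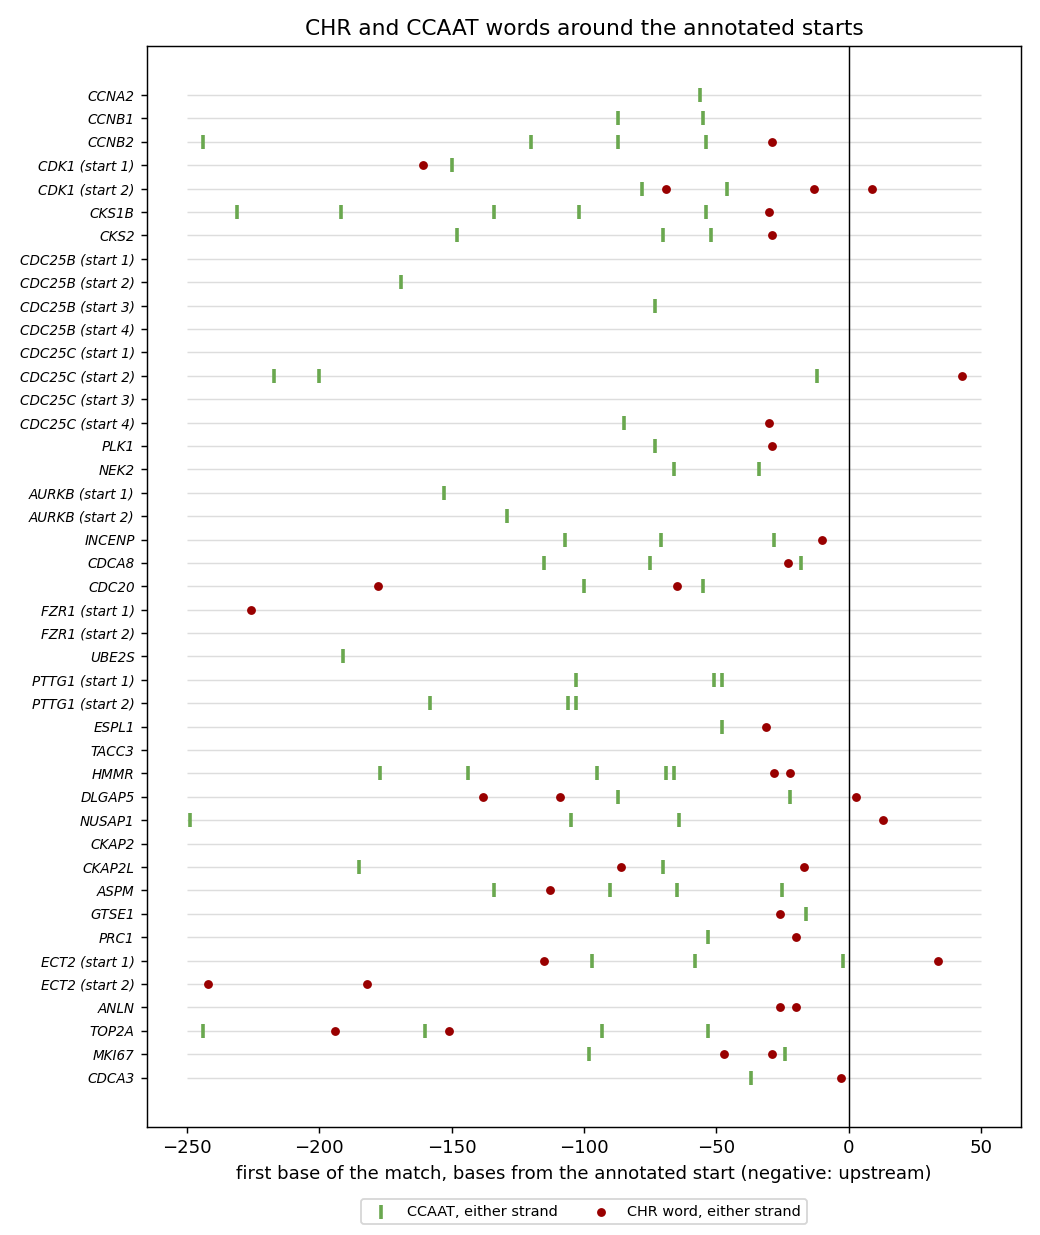
First base of each match to the CHR word (red points) and CCAAT (green bars), in bases from the annotated start, for each RefSeq start of the 32 genes with a window. In 16 of the 32 genes a red point lies within 40 bases upstream of a start, and CCNB1, CDC25B and AURKB show green bars and no red point.

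The stretches that follow show where these words stand in genes that fell, rose or did not pass. Each is the 150 bases before the annotated start, 5′ to 3′ on the strand of the gene (GRCh38.p14, RefSeq), with matches to CHR and CCAAT on either strand in capitals. The first 6 belong to genes that fell, ESPL1 rose, and CKS2 and ANLN were not called. CCNB1 has CCAAT boxes and no exact CHR word in this window.
GTSE1 (chr22:46296720-46296869, plus strand): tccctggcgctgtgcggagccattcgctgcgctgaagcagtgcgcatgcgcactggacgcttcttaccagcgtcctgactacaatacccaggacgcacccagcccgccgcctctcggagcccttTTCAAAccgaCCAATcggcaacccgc
CCNB1 (chr5:69167000-69167149, plus strand): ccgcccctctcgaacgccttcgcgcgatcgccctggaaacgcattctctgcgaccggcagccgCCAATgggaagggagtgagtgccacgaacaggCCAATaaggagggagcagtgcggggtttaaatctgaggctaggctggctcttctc
CCNB2 (chr15:59104996-59105145, plus strand): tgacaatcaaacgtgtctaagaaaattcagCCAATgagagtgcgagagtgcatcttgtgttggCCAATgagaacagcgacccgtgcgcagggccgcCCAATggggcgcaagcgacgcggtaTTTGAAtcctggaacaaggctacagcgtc
PLK1 (chr16:23678739-23678888, plus strand): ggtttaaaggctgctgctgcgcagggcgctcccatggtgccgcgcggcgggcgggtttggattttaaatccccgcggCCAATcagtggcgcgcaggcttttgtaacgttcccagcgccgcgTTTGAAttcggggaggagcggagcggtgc
HMMR (chr5:163460482-163460631, plus strand): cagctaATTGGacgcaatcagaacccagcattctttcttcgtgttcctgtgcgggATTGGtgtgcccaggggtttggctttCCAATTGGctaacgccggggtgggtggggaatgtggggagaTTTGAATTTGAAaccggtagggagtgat
CDC20 (chr1:43358831-43358980, plus strand): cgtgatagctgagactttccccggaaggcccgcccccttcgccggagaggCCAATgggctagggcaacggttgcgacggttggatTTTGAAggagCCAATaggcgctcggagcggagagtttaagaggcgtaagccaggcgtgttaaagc
ESPL1 (chr12:53268149-53268298, plus strand): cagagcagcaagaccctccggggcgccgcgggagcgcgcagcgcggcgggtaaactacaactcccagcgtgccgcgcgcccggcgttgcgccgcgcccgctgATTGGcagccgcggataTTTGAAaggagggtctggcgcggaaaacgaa
CKS2 (chr9:89311045-89311194, plus strand): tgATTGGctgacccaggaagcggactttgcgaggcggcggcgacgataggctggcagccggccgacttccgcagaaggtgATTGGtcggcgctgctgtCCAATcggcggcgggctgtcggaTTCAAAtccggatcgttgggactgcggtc
ANLN (chr7:36389712-36389861, plus strand): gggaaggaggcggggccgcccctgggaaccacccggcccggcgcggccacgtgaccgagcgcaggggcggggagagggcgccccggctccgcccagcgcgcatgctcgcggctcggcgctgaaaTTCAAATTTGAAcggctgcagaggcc

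The cyclins and CDK1 were divided. CCNB1 (ENSG00000134057), the cyclin that activates CDK1 at mitotic entry, stood at 396 and 393 CPM in siControl and at 248 and 237 CPM in siNSUN2. It fell by 0.70 on the log2 scale (SE 0.040, adjusted p = 8.63e-07), to 61.4% of control. CCNB2, its close relative, went from 94.0 and 91.4 to 64.0 and 60.8 CPM and fell by 0.57 (SE 0.045). The groups did not overlap for either gene. CCNA2, the cyclin of S phase and G2, stood at 220 and 227 CPM against 217 and 205 CPM, a log2 fold change of −0.082 (95% confidence interval −0.18 to 0.017, adjusted p = 0.151). It became lower without siControl replicate 1 (−0.17) and passed also without siNSUN2 replicate 1 and with 2 other settings. With GC content and length taken off, the log2 fold change of CCNA2 was 0.083 (adjusted p = 0.155). The count ratio of CCNB1 to CCNA2 within each library, which no scaling affects, was 1.80 and 1.73 in siControl and 1.14 and 1.16 in siNSUN2.

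CDK1 itself (ENSG00000170312) went from 329 and 328 CPM to 268 and 262 CPM and fell by 0.31 (SE 0.038, adjusted p = 1.02e-04). This gene has 37.0% GC, and with GC content and length taken off its log2 fold change was −0.052 (adjusted p = 0.297). The small CDK-binding subunit genes CKS1B and CKS2 did not pass. CKS1B had 121 and 134 CPM in siControl and 112 and 124 CPM in siNSUN2, so that the groups overlapped, and it passed as lower without siControl replicate 1 (−0.25). CKS2 had 142 and 144 against 151 and 147 CPM, a log2 fold change of 0.059, or 0.24 (adjusted p = 0.00162) with the correction. Per kb of transcript, CKS2 was the most abundant of the group in siControl (233 CPM per kb), ahead of CCNB1 (182) and of CDK1 and TPX2 (169 each). Reads of CKS1B are uncertain, since 7 annotated pseudogenes carry its name.

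The genes that set the phosphorylation of CDK1 showed the largest rises of the group. WEE1 (ENSG00000166483), the nuclear kinase that inhibits CDK1, stood at 87.7 and 89.7 CPM in siControl and at 159 and 161 CPM in siNSUN2 (log2 fold change 0.85, SE 0.040, adjusted p = 3.29e-07). Its level in siNSUN2 was 1.80 times control, and the change was 1.02 with the correction. PKMYT1 (ENSG00000127564), the membrane-bound kinase with the same target, had 39.4 and 39.6 against 77.4 and 75.2 CPM (log2 fold change 0.95, SE 0.042, adjusted p = 2.32e-07). Its transcript has 66.2% GC, the highest of the group, and the corrected value was 0.19 (adjusted p = 0.00517). CDC25B (ENSG00000101224), the phosphatase that starts CDK1 activation in G2, rose from 108 and 113 to 212 and 210 CPM (log2 fold change 0.93, SE 0.041, adjusted p = 2.27e-07), or by 0.48 with the correction.

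CDC25C, the phosphatase of the amplifying loop at mitotic entry, went the other way. It stood at 32.0 and 33.2 CPM in siControl and at 21.4 and 20.5 CPM in siNSUN2 (log2 fold change −0.63, SE 0.058, adjusted p = 1.47e-05). The groups did not overlap for any of these genes. The count ratio of WEE1 to CDC25C was 2.74 and 2.70 in siControl and 7.41 and 7.85 in siNSUN2, a 2.80-fold difference. For PKMYT1 to CDC25C the ratio was 1.23 and 1.19 against 3.61 and 3.66, and for CDC25B to CDC25C it was 3.39 and 3.40 against 9.90 and 10.2. With GC content and length taken off, the ratio of PKMYT1 to CDC25C differed 1.68-fold and that of CDC25B to CDC25C 2.06-fold, both less than in the raw counts. Ratios are given as descriptions, without a test. Exons of CDC25C overlap FAM53C on the other strand, and 2 pseudogenes are named after WEE1, so part of their reads may be shared.

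**Figure D4:**
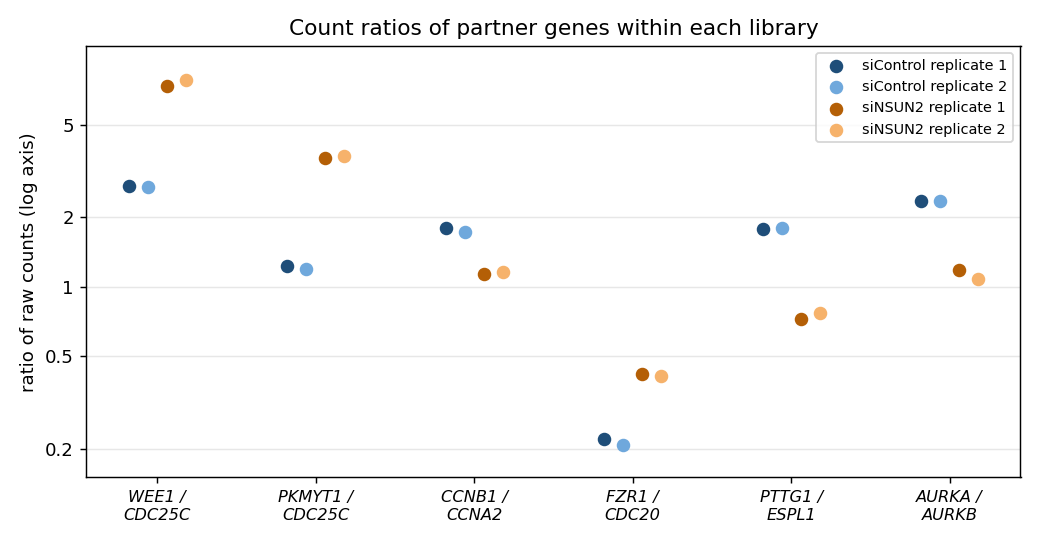
Ratio of the raw counts of 2 partner genes within each library (log axis), siControl in blue and siNSUN2 in orange. WEE1 to CDC25C, PKMYT1 to CDC25C and FZR1 to CDC20 are higher in both siNSUN2 libraries, and CCNB1 to CCNA2, PTTG1 to ESPL1 and AURKA to AURKB are lower, with replicates close together. FZR1 to CDC20 differed 1.94-fold in raw counts and 1.51-fold with GC content and length taken off.

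The mitotic kinases PLK1, AURKA, NEK2 and PBK all fell. AURKA (ENSG00000087586), which matures centrosomes and works on the spindle with TPX2, had 230 and 234 CPM in siControl and 136 and 122 CPM in siNSUN2. Its log2 fold change of −0.85 (SE 0.056, adjusted p = 4.85e-06) was the largest among these kinases. PLK1, which acts from mitotic entry to cytokinesis, went from 135 and 136 to 104 and 99.6 CPM (−0.41, SE 0.042), and the corrected value was −0.74. NEK2, a kinase that separates centrosomes, fell by 0.49, and PBK, a kinase active in mitosis, by 0.56. Their corrected values were −0.30 and −0.35. All siNSUN2 values of these kinases lay below all siControl values.

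AURKB belongs to another complex than its relative AURKA and did not fall. The chromosomal passenger complex of AURKB, INCENP, BIRC5 (survivin) and CDCA8 (borealin) corrects the attachment of chromosomes to the spindle and guides cytokinesis. AURKB had 97.3 and 99.2 CPM in siControl and 115 and 113 CPM in siNSUN2 (log2 fold change 0.22, SE 0.040, adjusted p = 0.00152). With GC content and length taken off, this value was 0.00021 (adjusted p = 0.997). The scaffold INCENP fell, from 64.9 and 65.4 to 51.4 and 50.9 CPM (−0.35, SE 0.041), or by 0.82 with the correction. BIRC5 stood at 160 and 180 against 147 and 164 CPM and CDCA8 at 108 and 102 against 102 and 93.8 CPM. Both overlapped between groups (log2 fold changes −0.13 and −0.10) and did not pass. BIRC5 passed without siControl replicate 1 and CDCA8 without siControl replicate 2, both at lower levels in siNSUN2. The count ratio of AURKA to AURKB was 2.36 in each siControl library and 1.18 and 1.08 in the siNSUN2 libraries. In siNSUN2 this ratio was 0.478 times that of siControl, and 0.584 times with GC content and length taken off.

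Around the APC/C, the early and late activators differed in direction. CDC20, which directs the complex in metaphase, went from 232 and 239 to 206 and 195 CPM (log2 fold change −0.23, SE 0.043, adjusted p = 0.00157), or −0.57 with the correction. FZR1, which takes over in late mitosis and G1, had 51.0 and 49.6 CPM in siControl and 86.3 and 80.2 CPM in siNSUN2 (0.73, SE 0.049, adjusted p = 2.13e-06). The transcript of FZR1 has 64.0% GC, and the corrected value was 0.027 (adjusted p = 0.703). Exons of FZR1 overlap MFSD12 on the other strand, as those of PKMYT1 overlap KREMEN2 and PAQR4, so part of their reads may be shared. The ubiquitin-conjugating enzyme gene UBE2C, which starts chains for the APC/C, fell from 49.9 and 50.5 to 33.2 and 36.1 CPM (−0.54, SE 0.053). UBE2S, which extends these chains, had 155 and 192 against 154 and 173 CPM and did not pass (−0.088, 95% confidence interval −0.62 to 0.44). Its controls differed more from each other than the group means did. Without siControl replicate 1 it passed as lower, at −0.30. In the annotation, 5 pseudogenes are named after UBE2C and 2 after UBE2S, so their counts are uncertain.

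Securin and separase moved apart. PTTG1 encodes securin, the inhibitor that the APC/C removes, and stood at 129 and 127 CPM in siControl and at 89.2 and 85.6 CPM in siNSUN2 (log2 fold change −0.55, SE 0.042, adjusted p = 5.07e-06). ESPL1 encodes separase, the protease that securin restrains and that cuts cohesin at anaphase. It rose from 72.9 and 71.1 to 123 and 112 CPM (0.71, SE 0.053, adjusted p = 5.39e-06), or by 0.32 (adjusted p = 0.00146) with the correction. The count ratio of PTTG1 to ESPL1 was 1.77 and 1.79 in siControl and 0.724 and 0.768 in siNSUN2. In siNSUN2 this ratio was 0.420 times that of siControl, and 0.551 times with GC content and length taken off.

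Of the 10 genes of spindle assembly and microtubule binding, 8 fell and 2 did not pass, with a median log2 fold change of −0.55. GTSE1 (ENSG00000075218), a microtubule plus-end protein that also restrains p53, showed the largest fall of all 42 genes. It stood at 91.9 and 91.8 CPM in siControl and at 37.9 and 34.7 CPM in siNSUN2 (log2 fold change −1.34, SE 0.051, adjusted p = 1.20e-07), or 39.6% of control. The siNSUN2 libraries lay close together and far below both controls. DLGAP5 (HURP), which stabilises microtubules near chromosomes, went from 194 and 189 to 113 and 110 CPM (−0.78, SE 0.041). ASPM, which focuses spindle poles, fell from 309 and 305 to 189 and 176 CPM (−0.75, SE 0.044).

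The remaining spindle genes fell less or did not pass. HMMR, a spindle pole protein that binds TPX2, went from 182 and 183 to 114 and 110 CPM (−0.70). TPX2, the activator of AURKA and the most abundant of these 10 in CPM per kb, had 615 and 605 against 438 and 403 CPM (−0.54, SE 0.047). CKAP2, CKAP2L and NUSAP1, which bind spindle microtubules, fell by 0.53, 0.55 and 0.25. The corrected values of CKAP2 and NUSAP1 were −0.31 and −0.086, the latter no longer called (adjusted p = 0.106). TACC3, a clathrin-linked spindle protein, had 136 and 156 against 160 and 146 CPM, and its log2 fold change of 0.068 was −0.30 with the correction. TACC3 also passed as higher without siControl replicate 2, at 0.15. TROAP, a spindle-associated protein, had 41.2 and 41.5 against 45.1 and 43.2 CPM (0.10, adjusted p = 0.119), or −0.34 with the correction.

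**Figure D5:**
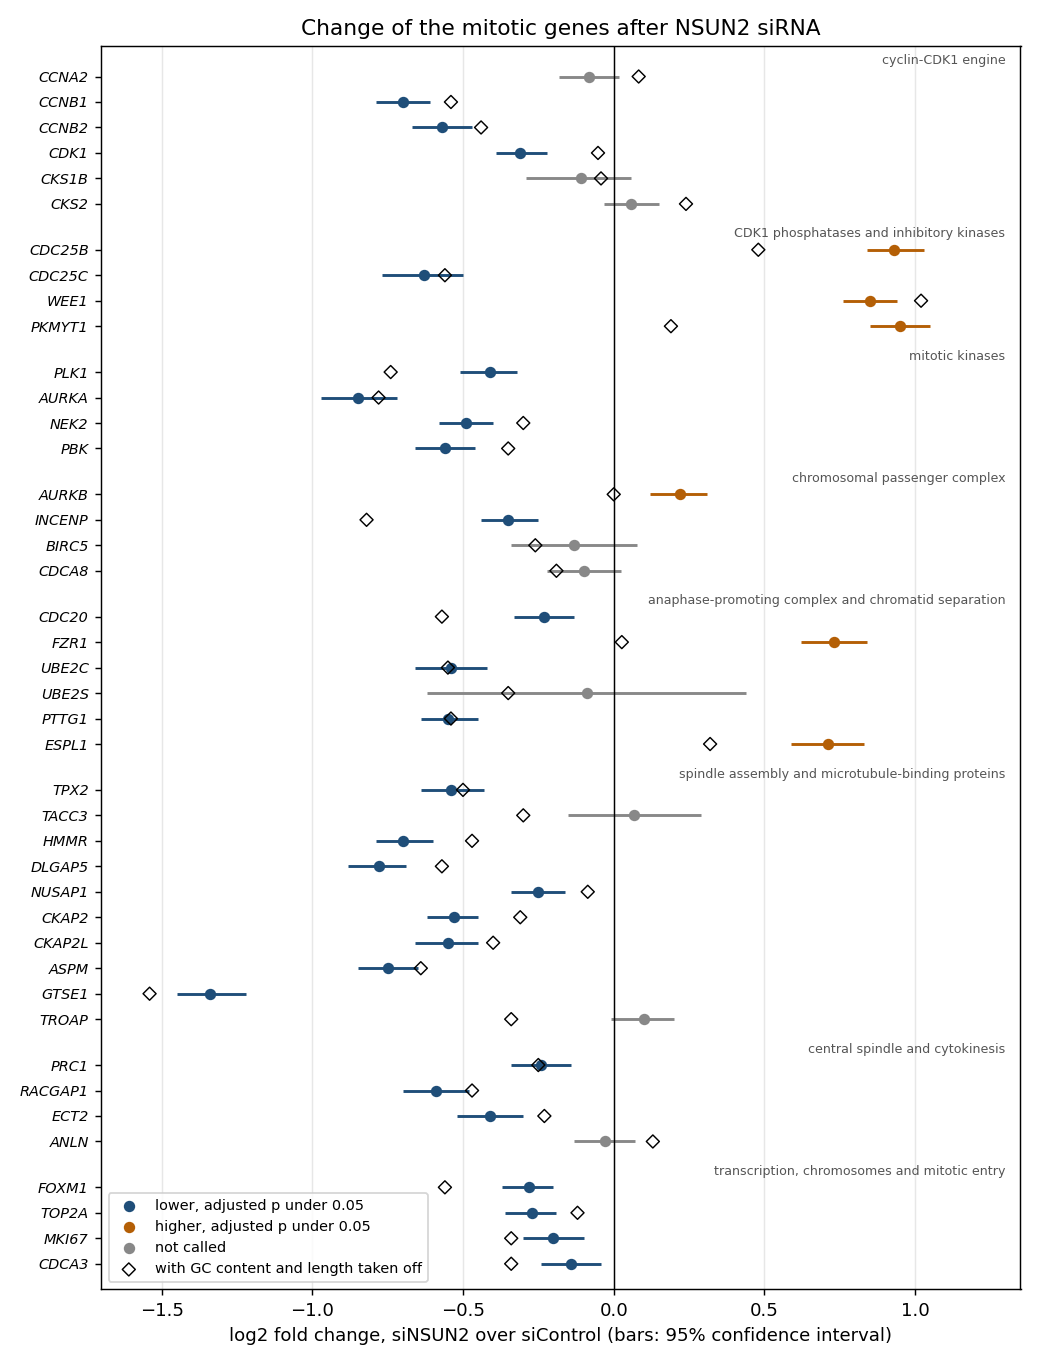
Log2 fold change (siNSUN2 over siControl) of each gene with its 95% confidence interval from the edgeR fit, grouped by role. Blue is lower, orange higher and grey not called, and open diamonds give the value with GC content and length taken off. Among the filled points, GTSE1 at −1.34 stands furthest left and PKMYT1 at 0.95 furthest right. Among the open diamonds, GTSE1 at −1.54 stands furthest left and WEE1 at 1.02 furthest right, with PKMYT1 at 0.19.

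The central spindle genes fell, whereas the contractile ring gene ANLN did not pass. RACGAP1, a subunit of centralspindlin, went from 166 and 165 to 114 and 105 CPM (log2 fold change −0.59, SE 0.048, adjusted p = 6.71e-06). ECT2, the exchange factor that activates RhoA for furrow ingression, fell from 326 and 321 to 253 and 232 CPM (−0.41, SE 0.048), or by 0.23 with the correction. PRC1, which bundles antiparallel microtubules, fell by 0.24. ANLN (anillin) had 254 and 251 CPM in siControl and 256 and 238 CPM in siNSUN2. Its log2 fold change was −0.030 with a 95% confidence interval of −0.13 to 0.072, and it was 0.13 (adjusted p = 0.0426) with the correction.

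FOXM1 and the chromosome genes fell slightly. FOXM1, the transcription factor of G2 genes, went from 265 and 266 to 220 and 217 CPM (log2 fold change −0.28, SE 0.037, adjusted p = 1.72e-04), or −0.56 with the correction. TOP2A, the topoisomerase that untangles chromatids, had 905 and 915 against 764 and 740 CPM (−0.27, SE 0.039), or −0.12 with the correction. MKI67, the proliferation marker that coats mitotic chromosomes, had 828 and 830 against 746 and 697 CPM (−0.20, SE 0.044, adjusted p = 0.00407). CDCA3, a trigger of mitotic entry, had 75.4 and 75.6 against 70.1 and 66.8 CPM (−0.14, adjusted p = 0.0217). The corrected value of both MKI67 and CDCA3 was −0.34. CDCA3 was not called without siNSUN2 replicate 2 (−0.10), and neither was called without a filter on low counts.

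Some transcripts of the group carry the 6-base word ACCCTA in the 3′ untranslated region (UTR). The word came from an earlier search of words ranked on the fold changes of these same libraries. The medians that follow therefore support nothing and are given as a description. The word was found in the longest coding transcript of 6 of the 42 genes (14.3%), against 20.7% of all genes searched. The 6 were GTSE1, RACGAP1, CKAP2L, FOXM1, MKI67 and BIRC5, with a median log2 fold change of −0.42. The 36 without it had a median of −0.26, and 27 of them were below 0. Over all genes searched, the medians were −0.16 with the word and 0.085 without. Sites of GTSE1, which fell the most of the 42, and of CKAP2L are shown as examples in which an A precedes the word, with the matched bases in capitals and 30 bases in all (GENCODE release 29 transcripts).
GTSE1 3′ UTR site: cttacacttgtAACCCTAgaacttgggagg
CKAP2L 3′ UTR site: ggagaaaagagAACCCTAgtacactgtttg

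Partners in the same pathway were counted from lists, which were also chosen with earlier results of these data known. The counts are to be read against the 25.5% lower and 27.1% higher of all genes tested. CENPE, SGO1, KIF20A, KIF23 and CEP55 each stand in 2 lists, and no test compared the lists. Of 40 kinetochore, centromere and checkpoint genes, 27 (67.5%) were lower and 5 (12.5%) higher (median log2 fold change −0.32). Next to the kinesin CENPE, which fell by 2.24, the smallest p-values belonged to SGO2, which protects centromeric cohesin (−0.93), and CENPI (−0.98). Of 13 mitotic kinesins, 10 (76.9%) were lower and 2 (15.4%) higher (median −0.42), among them KIF18A (−1.21) and KIF20B (−1.24). Of 10 genes of condensin and cohesin protection, 6 were lower and 2 higher (median −0.44), with NCAPD3 at −0.91, SMC2 at −0.82 and NCAPH at −0.79. Of 14 centrosome genes, 8 (57.1%) were lower and 2 (14.3%) higher (median −0.21), with CEP152 at −0.59, CCP110 at −0.51 and PLK4, the kinase of centriole duplication, at −0.49. Of 14 partners in cytokinesis, 7 were lower, PLK1 of the 42 among them, and 4 (28.6%, near the share of all genes) were higher (median −0.11). There SEPTIN7, a septin filament subunit, went from 299 ± 0.268 to 56.5 ± 1.09 CPM (SD, n = 2 each), ahead of ARHGAP11A (−0.57) and CEP55 (−0.50). With GC content and length taken off, PLK4 was at −0.29 and CEP55 at −0.31. The few higher calls in these lists changed with single libraries. Without siControl replicate 1, siControl replicate 2 or siNSUN2 replicate 1, 3 of the kinetochore genes, 1 of the kinesins and 1 of the condensin and cohesin genes were higher, and without siControl replicate 1, 2 of the cytokinesis genes were. With GC content and length taken off, 0 kinesins, 0 condensin and cohesin genes, 1 centrosome gene and 2 cytokinesis genes were higher. The centrosome gene was CEP135 and the cytokinesis genes were RHOA and PDCD6IP. Of these, only RHOA was also called higher without the correction. KIF22 (−0.27), KIFC1 (−0.11) and CDCA5 (−0.12) went from higher to lower calls.

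Of 15 genes of the APC/C core and its inhibitor EMI1, 10 (66.7%) were lower and 2 (13.3%) higher (median −0.25). The subunit ANAPC5 fell by 0.91 and FBXO5, which encodes EMI1, by 0.51, whereas ANAPC11, the catalytic RING subunit, rose by 0.62. Of 15 genes of the Greatwall pathway and of mitotic phosphatases, 9 were lower and 5 (33.3%) higher (median −0.22), with PPP1CA at 0.59, PPP1CC at −0.43 and PPP2R1A at 0.69. With GC content and length taken off, ANAPC11 was at 0.31, FBXO5 at −0.28, PPP1CA at 0.14, PPP1CC at −0.23 and PPP2R1A at 0.46. The correction left 5 genes of the Greatwall and phosphatase list lower, and without siControl replicate 1, 3 of that list were higher.

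Without the correction, upstream regulators of the mitotic genes and E2F targets were called higher at shares near that of all genes. Their shares called lower were larger than that of all genes. Brakes on the kinases were called higher at a larger share than all genes. Of 16 genes of MuvB, DREAM, B-MYB and NF-Y, 7 (43.8%) were lower and 5 (31.2%) higher (median −0.092). RBL2, which encodes the pocket protein p130 of the repressive DREAM complex, fell by 1.17, MYBL1 rose by 0.55 and NFYC by 0.49. MYBL2, which encodes B-MYB, rose by 0.50, and was at 0.0054 (adjusted p = 0.938) with GC content and length taken off. Of 25 E2F targets of G1 and S phase found (26 were listed), 10 were lower and 7 higher (median −0.033). The helicase subunits MCM4 and MCM6 were at −0.91 and −0.86 and CDC25A at 0.85. With the correction, the median was −0.004 for the regulators and −0.22 for the E2F targets, against −0.044 over all genes tested. Calls ended with it in both lists, among them the lower calls of LIN9, LIN52 and NFYB and the higher calls of E2F1 and CDT1. Of 13 brakes on cyclin-dependent kinases and genes of G1 arrest, 10 (76.9%) were higher and 1 (7.69%) lower (median 0.63). The median GC content of that list was 57.4%, and with GC content and length taken off 7 were higher and 1 lower. CDKN1A, which encodes p21, went from 110 ± 3.22 to 237 ± 0.258 CPM (SD, n = 2 each, log2 fold change 1.11), GADD45B rose by 0.89 and GADD45A by 0.63, and MDM2 fell by 0.77.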

How the data were processed

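Poly(A) RNA of 2 siControl and 2 siNSUN2 libraries of T24 cells was sequenced as stranded libraries in read pairs, per the labels' protocols. The authors deposited raw counts per Ensembl gene. HISAT2, HTSeq and hg19 are named in the submitters' processing notes; the sources used here do not give versions, annotation or strand setting. Exons of 15 of the 42 genes overlap another gene in GENCODE release 29 and 15 have a pseudogene named after them, so their reads may be shared.

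Counts were tested with edgeR 4.0.16 in R 4.3.3 (robust quasi-likelihood F-test, two-sided, TMM, filterByExpr, no block). Benjamini-Hochberg adjustment was over 16889 genes at 0.05. The test was also run on simulated counts with far fewer changed genes than were called here, so that run does not cover changes this broad. SE and intervals come from the F statistic. The members and gene lists were chosen with earlier results of these data known. In each role the genes with the smallest p, largest rise and largest fall were to be given per library, the others by values or ranges, and of each list up to 3 called genes with the smallest p. MYBL2 was added as the gene of B-MYB. The alternatives were DESeq2 1.42.0, limma-voom (limma 3.58.1), a non-robust fit, other scalings, filters and thresholds, a replicate block, each library left out, thinning, and loess offsets on GC content and transcript length (known for 96.4% of genes). Within groups, the replicate counts differed beyond Poisson noise (chi-square over its degrees of freedom, 20.5 and 13.5), so none was merged. The ACCCTA search covered 3′ UTRs of at least 50 bases in GENCODE release 29, matched by gene ID.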

Additional observations from a re-analysis of the deposited data

How the results depend on the processing

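Of the 42 mitotic genes, 23 kept their direction and their side of the threshold under all 17 alternatives, of which 19 were lower and 4 higher (CDC25B, WEE1, PKMYT1 and ESPL1). The count of lower genes ran from 26 to 31 and that of higher genes from 6 to 7 with each library left out. The median of −0.28 ran from −0.35 to −0.26 with each library left out and was −0.34 with GC content and length taken off; the cause was not tested. Against a fold of 1.2, the whole table held 2913 genes higher and 2529 genes lower, and 19 mitotic genes were lower and 5 higher, since that test asks for more than any change. Directions turned in 6 genes, none of them called in the reported fit, though TACC3, TROAP and ANLN passed after the turn with GC content and length taken off. With GC content and length taken off, CCNA2 was at 0.083, TACC3 at −0.30, TROAP at −0.34 and ANLN at 0.13. With each library left out, CKS2 ran from −0.021 to 0.089 (the lowest without siControl replicate 1), TACC3 from −0.092 (without siControl replicate 1) to 0.15, ANLN from −0.086 to 0.031 (without siNSUN2 replicate 2) and UBE2S from −0.30 to 0.062 (without siControl replicate 2). TACC3 was at −0.004 without siNSUN2 replicate 1. For each of these turns the cause was not tested.

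With the replicate number as a block, 30 mitotic genes were lower and 6 higher, and CKS1B, BIRC5 and CDCA8 became lower. The labels do not say that the numbers pair the libraries, and the replicate differences of the groups correlated at 0.0645 across 9702 genes, which are not independent. Thinning all libraries to 33633249 counts left 27 lower and 6 higher. DESeq2 and limma-voom each gave 27 and 6. With 2 libraries a group, no permutation test of a single gene can reach the threshold, and the spread rests on information shared across genes.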
